A study of Bos grunniens and Bos grunniens x Bos taurus with 2 samples.

Results

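The proteasome genes described here were the 41 of 26961 annotated features whose gene symbol consisted of PSM, a letter from A to G and a number; 15722 of the features had a symbol. They were chosen by name with no measured value in the rule, but earlier results of these data were known when the rule was set. All 41 had at least 1 UMI (unique molecular identifier, the count of a captured transcript). They comprised 5 genes of the 20S alpha ring, its germ cell form PSMA8, 6 genes of the 20S beta ring, 3 alternative beta genes, 6 ATPases and 10 non-ATPases of the 19S particle, 5 activators and inhibitors and 3 assembly chaperones. A further 2, PSMC3IP and PSME3IP1, matched the pattern but encode proteins named for binding a proteasome protein; they are counted among the 41 members, in the counts and medians below too. Another 4 features without a symbol were described in the study's own gene tables as proteasome subunit alpha type-7 (ENSBGRG00000023084), beta type-6 (ENSBGRG00000025721), beta type-9 (ENSBGRG00000021991) and proteasome assembly chaperone 4 (ENSBGRG00000008779). These are the products known as PSMA7, PSMB6, PSMB9 and PSMG4. They were not members and are shown beside them by those descriptions.

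Testis cells of 1 yak (Bos grunniens) and of 1 cattle-yak, the hybrid of yak and cattle, were sequenced by droplet single-cell RNA-seq after sexual maturity. The labels gave no genotype or treatment for either. Both tissues had been frozen, thawed and digested with enzymes before capture. Each cross was a single library with no replicate, so every value below compares cells or libraries, not crosses, no difference was tested against replicate spread, and no p-value is given.

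The proteasome is the barrel-shaped protease that degrades ubiquitin-tagged proteins. Its 20S core stacks alpha rings on beta rings, which carry the proteolytic sites, and the 19S particle recognises, unfolds and feeds the substrate. Lymphocytes and cells exposed to interferon exchange the catalytic beta subunits for PSMB8, PSMB9 and PSMB10, the immunoproteasome, which makes peptides for class I antigen presentation, whereas male germ cells use the alpha subunit PSMA8 in place of PSMA7 and the activator PSME4 (PA200), a combination known as the spermatoproteasome.

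The yak library held 11991 cells with 60816600 UMIs and the cattle-yak library 8930 cells with 43774841 UMIs. With upper limits on genes, UMIs and mitochondrial share (30%), 10324 and 7092 cells were kept. Above the limits on genes or UMIs lay 792 and 570 cells. Of these, the 790 and 528 below 30% mitochondrial share are called deep cells. Germ types of 1127 kept yak cells were the authors' own: 84 SSC (spermatogonial stem cells), 486 SPG (spermatogonia), 72 early-SPC and 261 late-SPC (spermatocytes) and 224 SPT (spermatids). All other classes were rebuilt by clustering without the proteasome genes and are called "-like" by their markers: T/NK (T and natural killer lymphocytes), macrophage, EC (endothelial), lymphatic EC, stromal, MC (myoid) and pericyte. The cattle-yak also held 14 LC-like (Leydig) and 29 epithelial-like cells, which enter its somatic sums only. Summed spermatid markers reached 9572 CPM (UMI counts scaled to a total of 1000000) in SPT, and spermatocyte markers 7424 CPM in early-SPC. The cells labelled SSC instead carried 2201 CPM of 11 endothelial markers, against 537 CPM in SPG and 3779.7 CPM in EC-like cells. The libraries shared 24 cell barcodes.

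Deep germ-like cells of the yak numbered 406 in 8 clusters. They are listed below in the order of their summed markers, which is not a measured time. Clusters 10, 7 and 12 were led by spermatogonial markers (3095, 3409 and 2495 CPM). Their spermatocyte markers summed to 1208, 1264 and 2418 CPM, so both sums were nearly equal in cluster 12. Clusters 4, 8 and 0 were led by spermatocyte markers (6337, 5643 and 4517 CPM). Clusters 13 and 9 were led by spermatid markers (13153 and 22481 CPM). Their median depth of 26566 UMIs per cell compares with 22062 in the 308 deep cells of named somatic classes. These 308 were EC-like (clusters of 103, 75 and 51 cells) and MC-like (79 cells), with no other named class. The EC-like clusters of 103 and 75 cells also had 6 pericyte markers enriched, and the MC-like cluster 6 endothelial markers. Values for deep somatic cells below hold for these classes only, unlike those for the kept somatic classes. In the text, a value in CPM is followed by its exact 95% Poisson interval and a share by its exact binomial interval, which cover counting error only. Capture can differ between genes, so levels of different genes were not ranked, and the share of a gene within a pair is compared between cell types only. A cluster is said to be led by the marker list with its largest sum.

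Yak germ cells carried more proteasome mRNA per UMI than the somatic cells of the same library. The 27 core genes of the 20S and 19S particles summed to 4369 CPM (4273 to 4466) in the typed germ cells. The same sum was 2582 CPM (2564 to 2600.1) in the named somatic classes, within which it ranged from 2096 CPM in T/NK-like to 2893 CPM in stromal-like cells. Among the germ types the sum was 2698 CPM (2444 to 2971) in SSC, 3943 CPM (3788 to 4103) in SPG, 4976 CPM (4720.2 to 5242) in early-SPC, 5568 CPM (5358 to 5784) in late-SPC and 3542 CPM (3321 to 3773) in SPT. Spermatocytes were thus highest in this sum, and SSC fell in the somatic range. The higher sum was not shared by most core genes in early-SPC. Of 17 core genes with at least 100 summed UMIs, 8 were higher in early-SPC than in SPG. For late-SPC, 15 of 19 were higher than in SPG. The median log2 ratio to SPG over all genes was itself above 0, at 0.19 in early-SPC and 0.13 in late-SPC. Of the core genes, 7 of 17 in early-SPC and 13 of 19 in late-SPC lay above that median. Of the SPT sum, 968 CPM was PSMA6 alone, and without that gene SPT held 2573 CPM (2386 to 2771). The deep clusters went from 4893 CPM in cluster 10 through 6803 CPM in cluster 4 to 3538 CPM in cluster 9. Cluster 9 held 1944 CPM without PSMA6. All 41 members together summed to 5607 CPM in deep germ-like and 3735 CPM in deep somatic cells. Mitochondrial UMIs took from 0.387% of the total in cluster 9 to 16.9% in cluster 7. Their part in the sums of the clusters was not tested.

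**Figure D1:**
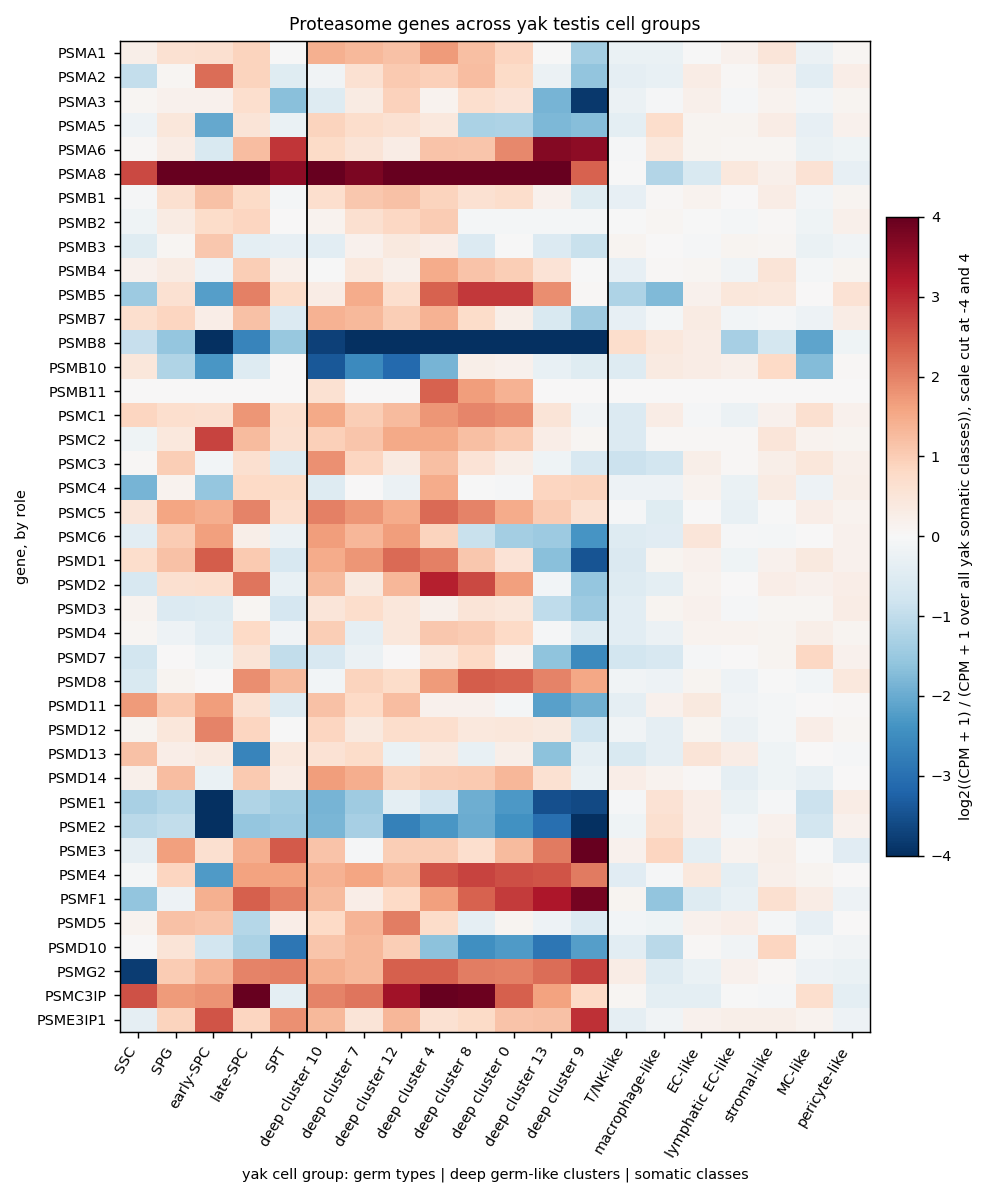
Level of each of the 41 proteasome genes (rows, ordered by role) in yak germ types, deep germ-like clusters and somatic classes (columns), as the log2 ratio of CPM + 1 to CPM + 1 over all named yak somatic classes, red above and blue below, with the colour scale ending at -4 and 4. PSMA8 lies above and PSMB8 below this pooled somatic level in all germ columns. The PSMA8 value of SSC rests on 2 UMIs, and PSMB8 in SSC, SPG and SPT lies above its level in MC-like cells.

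Genes were compared by the log2 ratio of CPM + 1, over all genes with at least 100 summed UMIs, and a ratio of at least 1 or at most -1 is called 2-fold higher or lower. In typed germ cells against named somatic classes, 38 of the 41 members had enough UMIs; PSMB11, PSMF1 and PSMC3IP did not. Of these, 10 were at least 2-fold higher, where 28.8% of all 10460 genes were, and 3 were at least 2-fold lower, where 18.7% of all genes were. The members' median was 0.68 against 0.20 for all genes. Of the 27 core genes, 20 had a ratio above the median of all genes, with a core median of 0.71. The higher members were PSMA8, PSME3, PSMC5, PSMG2, PSME3IP1, PSMC2, PSMD1, PSMA6, PSMD2 and PSMC1, and the lower members were PSMB8, PSME1 and PSME2. In deep germ-like against deep somatic cells, 14 of 40 were higher (47.2% of all genes) and 4 lower (20.5%), with a median of 0.45 against 0.86. There the core genes lay lower than genes in general, with 10 of 27 above the median of all genes and a core median of 0.40. Of the 38 members tested in both comparisons, 8 were higher in both sets of germ cells, namely PSMD2, PSMC1, PSMA6, PSMC5, PSME3, PSME3IP1, PSMA8 and PSMG2. A further 3, PSME1, PSME2 and PSMB8, were lower in both. The share of all genes higher or lower in both was not computed, so these counts are not read against it. Both sets of germ cells hold different cells of the same library, and their somatic sides hold different classes. With every cell weighted equally, the log2 ratios of PSMD1 and PSME2 in typed germ cells were 0.96 and -0.95, and with germ-like clusters in place of the authors' types that of PSMC1 was 0.92.

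Each germ type was also compared with SPG; the 4 comparisons share the SPG cells and are given side by side. Among SSC, 0 of 12 members were 2-fold higher (6.22% of all genes) and 2 lower (20.1%), which were PSMC5 and PSMD14. Early-SPC had 4 higher of 17 (31.6% of all genes), namely PSMC2, PSMA2, PSMD12 and PSMD1, and 2 lower (26.5%), PSMD14 and PSMC3. Late-SPC had 4 higher of 20 (32.1%), namely PSMA8, PSMD8, PSMD2 and PSMC1, and 0 lower (22.6%). In SPT, 2 of 13 were higher (23%), PSMA6 and PSMD8, and 3 lower (29.9%), PSMD1, PSMC3 and PSMB7. Without mitochondrial and ribosomal RNA features in the total, 6 of 13 SPT members were 2-fold lower and the same number as before, 2, were higher. The median of all genes fell there too, to -0.54, beside -0.86 for the members. With every cell weighted equally, the log2 ratios of PSMC5 and PSMD14 in SSC (-0.82 and -0.66), of PSMC3 in early-SPC (-0.55) and of PSMB7 and PSMD8 in SPT (-0.85 and 0.97) were under 2-fold. The median of the members was -0.48 in SSC (all genes -0.32) and -0.02 in early-SPC (all genes 0.19). It was 0.52 in late-SPC (all genes 0.13) and -0.72 in SPT (all genes -0.41).

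**Figure D2:**
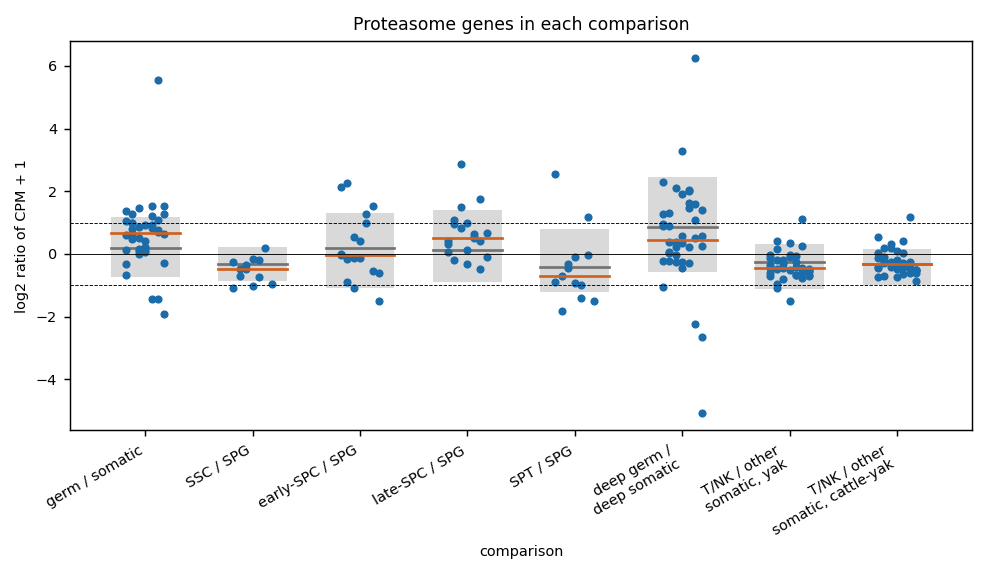
Log2 ratio of CPM + 1 for each tested proteasome gene (blue points) in 8 comparisons within a library. Grey bars span the quartiles of all tested genes with their median as a grey line, orange lines mark the members' median, and dashed lines mark 2-fold; the highest points of the comparisons of germ with somatic cells are PSMA8, and the lowest points of the deep comparison are PSMB8, PSME2 and PSME1.

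PSMA8, the alpha subunit of the spermatoproteasome, was the member with the largest ratio of germ to somatic cells. In the yak it was at 13.1 CPM (1.58 to 47.2) in SSC, 35.6 CPM (22.3 to 53.8) in SPG, 109 CPM (74.0 to 155) in early-SPC, 265 CPM (220.4 to 315) in late-SPC and 25.8 CPM (10.4 to 53.1) in SPT. The interval of late-SPC overlapped none of the others, and early-SPC lay between it and the rest. Named somatic classes held 1.26 CPM (0.891 to 1.73), from 0 in macrophage-like to 2.38 CPM in MC-like cells, a like low level in all of them. Against these classes the ratio in typed germ cells was 5.86 to 6.91 on the log2 scale without an added CPM. Late-SPC stood 2.86 log2 units above SPG (interval 2.23 to 3.62). Cells differ in depth, so all were also cut at random to 1000 UMIs each. Of these, 29 of 164 late-SPC cells had a PSMA8 UMI, 17.7% (12.2 to 24.4). The same held for 6 of 237 SPG cells, 2.53% (0.935 to 5.43), and for 6 of 3499 T/NK-like cells, a type that should lack the gene, 0.171% (0.0630 to 0.373). Unthinned, the shares were 21.5%, 4.12% and 0.243% at median depths of 1168, 979.5 and 1941 UMIs. Thinning left out 97, 249 and 203 shallower cells.

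In the deep clusters, PSMA8 was at 77.2 CPM (65.3 to 90.6) in cluster 10, 29.9 CPM (22.7 to 38.8) in cluster 7 and 81.4 CPM (62.0 to 105) in cluster 12. It was highest in cluster 4 at 304 CPM (276 to 334), where PIWIL1, a piRNA-binding protein of meiotic cells, was among the leading genes. Of the other clusters, it was at 130.2 CPM (117 to 145) in cluster 8, 119.7 CPM (105 to 136) in cluster 0, 80.0 CPM (63.5 to 99.6) in cluster 13 and 10.5 CPM (6.12 to 16.8) in cluster 9. Deep somatic cells held 3 UMIs, 0.398 CPM (0.0821 to 1.16).

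Alpha type-7 (ENSBGRG00000023084), the subunit whose place PSMA8 takes, was low where PSMA8 was high. It was also low in cluster 9, where PSMA8 was lowest among the deep clusters, so the levels of both genes were not simply opposite. It was at 184 CPM (152 to 221) in SPG, 52.7 CPM (29.5 to 86.9) in early-SPC, 56.7 CPM (37.4 to 82.5) in late-SPC and 110.4 CPM (74.5 to 158) in SPT, and at 259.9 CPM (254 to 266) in somatic classes. The deep clusters held 189.7 CPM (171 to 210.1) in cluster 10, 243 CPM (221 to 266) in cluster 7, 92.5 CPM (71.7 to 117) in cluster 12 and 29.3 CPM (21.1 to 39.6) in cluster 4. In cluster 8 it was at 3.32 CPM (1.52 to 6.30), the lowest of the 8, and clusters 0, 13 and 9 held 9.62, 30.0 and 30.9 CPM. The PSMA8 share of the summed UMIs of both genes was 16.2% (10.4 to 23.5) in SPG, 67.4% (52.0 to 80.5) in early-SPC, 82.4% (75.4 to 88.0) in late-SPC and 18.9% (7.96 to 35.2) in SPT. Among the deep clusters it was 28.9% (25.0 to 33.1) in cluster 10, 11.0% (8.41 to 14.0) in cluster 7 and 46.8% (37.9 to 55.9) in cluster 12. It was 91.2% (88.3 to 93.6) in cluster 4, 97.5% (95.3 to 98.9) in cluster 8 and 92.6% (88.5 to 95.5) in cluster 0. Clusters 13 and 9 held 72.7% (63.4 to 80.8) and 25.4% (15.5 to 37.5). In somatic classes it was 0.482% (0.341 to 0.661). The paralogs are similar in sequence, and how the authors' counting assigned reads that match both was not tested.

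**Figure D3:**
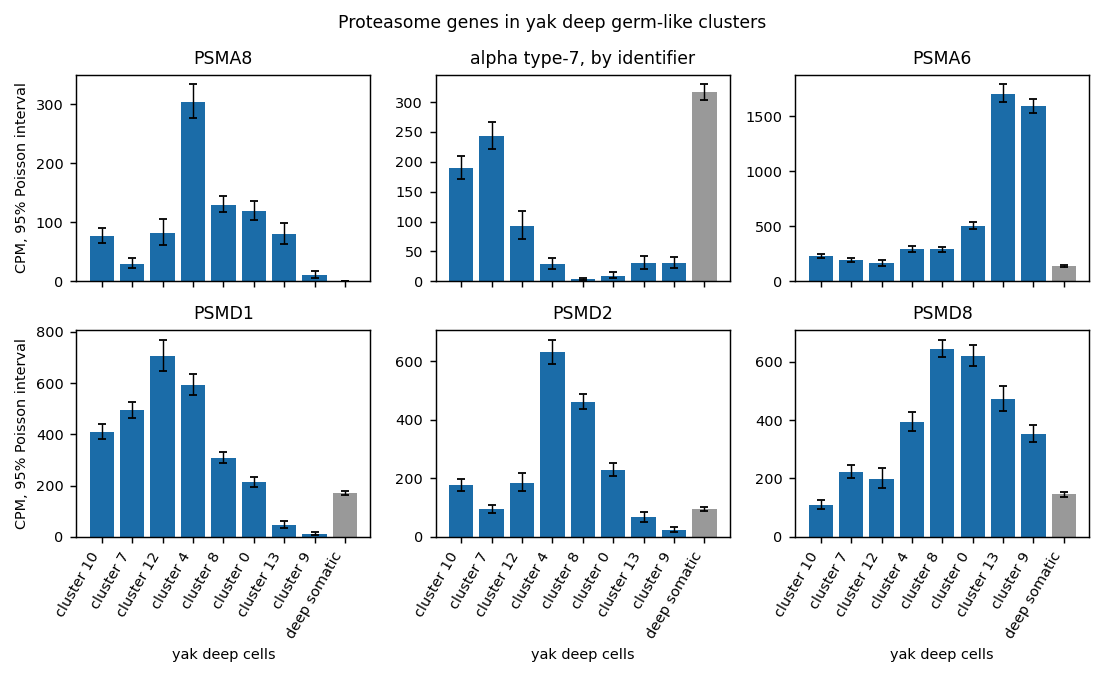
CPM of 6 proteasome genes in the 8 yak deep germ-like clusters (blue bars, ordered by marker sums) and in deep somatic cells (grey), with exact 95% Poisson intervals; alpha type-7 is the feature described so in the study's tables. PSMA8 and PSMD2 are highest in cluster 4, alpha type-7 is lowest in cluster 8, PSMD1 falls from cluster 12 to cluster 9, and PSMA6 is highest in clusters 13 and 9.

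PSMA6, an alpha ring subunit present in every proteasome form, was highest in spermatids among the germ types. It was at 137 CPM (84.9 to 209.7) in SSC, 163 CPM (133 to 198) in SPG, 87.8 CPM (56.8 to 129.6) in early-SPC, 315 CPM (267 to 369.6) in late-SPC and 968 CPM (855 to 1093) in SPT. SPT stood 2.56 log2 units above SPG (interval 2.23 to 2.91). In deep clusters 13 and 9 it reached 1706 CPM (1626 to 1789) and 1594 CPM (1533 to 1657), and in the other 6 it ranged from 164 to 507 CPM. The somatic classes were alike, from 112 in MC-like to 181 CPM in macrophage-like cells. After thinning, 53 of 98 SPT cells had a PSMA6 UMI, 54.1% (43.7 to 64.2), against 35 of 237 SPG cells, 14.8% (10.5 to 19.9). The other 4 alpha ring genes did not share this pattern. PSMA1, PSMA2, PSMA3 and PSMA5 were at 12.4, 16.7, 2.47 and 22.9 CPM in cluster 9, below their levels of 37.6, 77.2, 45.1 and 98.2 CPM in deep somatic cells. PSMA2 was instead highest in early-SPC, at 246 CPM (192 to 311) against 54.9 CPM (38.1 to 76.8) in SPG. PSMA5 was low there, at 17.6 CPM against 105 CPM in SPG.

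Of the 6 beta ring genes, none in typed germ cells passed 2-fold against somatic classes, and their median log2 ratio was 0.56. PSMB1 was at 558 CPM (475 to 652) in early-SPC and 232 CPM (178 to 297) in SPT, with 246 CPM (240.0 to 251) in somatic classes. PSMB5, which carries the chymotrypsin-like site, was at 24.4 CPM (17.9 to 32.4) in cluster 10, 105 CPM (89.1 to 123) in cluster 4, 146 CPM (132 to 162) in cluster 8, 145 CPM (128 to 163) in cluster 0 and 20.4 CPM (14.0 to 28.6) in cluster 9, against 26.1 CPM (22.6 to 30.1) in deep somatic cells. T/NK-like and macrophage-like cells were lowest for PSMB5, at 7.77 CPM and 5.09 CPM. PSMB7, which carries the trypsin-like site, was at 272 CPM in cluster 10, 271 CPM in cluster 4 and 37.7 CPM in cluster 9. Beta type-6 (ENSBGRG00000025721), with the caspase-like site, was at 302 CPM in cluster 4 and 41.4 CPM in cluster 9. PSMB4 was highest in cluster 4, at 495 CPM (459 to 533).

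The 19S ATPases form the ring that unfolds substrates, and 3 of 6 were 2-fold higher in typed germ cells than in somatic classes, beside 28.8% of all genes. PSMC5 was at 479 CPM (447 to 512) against 166 CPM (162 to 171), a log2 ratio of 1.52 (interval 1.42 to 1.63). Its level was 499 CPM (445 to 558) in SPG, 663 CPM (592 to 741) in late-SPC and 269 CPM (211 to 338) in SPT. All 5 germ types lay above the 199.7 CPM of MC-like cells, the highest somatic class, though the SSC interval began at 165 CPM. PSMC2 was at 386 CPM (317 to 466) in early-SPC and 143 CPM (111 to 181) in late-SPC, against 79.2 CPM (58.6 to 105) in SPG. PSMC1 was 1.07 log2 units higher in late-SPC than in SPG, at 361 CPM (309 to 419), and 0.89 higher without mitochondrial and ribosomal RNA features in the total. PSMC3 and PSMC6 were highest in clusters led by spermatogonial markers. PSMC3 was at 434 CPM in cluster 10 and 77.3 CPM in cluster 9. PSMC6 was at 86.9 CPM in cluster 12, whose spermatocyte marker sum was nearly as large, and 4.33 CPM in cluster 9. PSMC4 had another order, with 208 CPM in cluster 4 and 139 CPM in cluster 9 against 83.3 CPM in deep somatic cells.

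Among the non-ATPases, the scaffold subunits PSMD1 and PSMD2 were 2-fold higher in typed germ cells, the only ones of 10, beside 28.8% of all genes. PSMD1 was at 235 CPM (165 to 326) in SSC, 326 CPM (283 to 375) in SPG, 787 CPM (687 to 897) in early-SPC, 304 CPM (257 to 358) in late-SPC and 92.0 CPM (59.6 to 136) in SPT, and at 145 CPM (141 to 149.7) in somatic classes. Deep cells held 705 CPM (645 to 769) in cluster 12 and 12.4 CPM (7.55 to 19.1) in cluster 9. PSMD2 was highest in late-SPC among the types, at 116 CPM (79.8 to 163) in early-SPC, 323 CPM (274 to 379) in late-SPC and 58.9 CPM (33.7 to 95.7) in SPT, and at 631 CPM (591 to 674) in cluster 4. PSMD8, a lid subunit, was high in both late-SPC and SPT. Its level was 129 CPM (103 to 161) in SPG, 119 CPM (82.7 to 167) in early-SPC, 439 CPM (381 to 502) in late-SPC and 291 CPM (230.3 to 362) in SPT. It reached 644 CPM (615 to 675) in cluster 8 and 619.5 CPM (584 to 656) in cluster 0, against 146 CPM (137 to 155) in deep somatic cells. In the RefSeq gene order PSMD8 lies between CATSPERG, a sperm calcium channel subunit gene, and GGN, a testis gene. PSMD12 was highest in early-SPC, at 534 CPM (452 to 626) against 183 CPM (150.5 to 219.6) in SPG. PSMD14, the deubiquitinase of the particle, was lower in early-SPC than in SPG, 56.2 CPM (32.1 to 91.2) against 162 CPM (131 to 197). PSMD13 stayed at or below 13.1 CPM in every yak germ group.

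PSMB2 was highest in cluster 4, at 342 CPM (312 to 373), against 194 CPM (185 to 205) in deep somatic cells. PSMB3 was highest in early-SPC, at 235 CPM (182 to 299) against 118 CPM (92.5 to 148) in SPG. The 19S subunit PSMD3 ranged from 12.4 CPM in cluster 9 to 58.3 CPM in cluster 7, with 50.8 CPM in deep somatic cells. The ubiquitin receptor PSMD4 ranged from 59.3 CPM in cluster 9 to 181 CPM in cluster 4. PSMD7 was highest in cluster 8, at 300.3 CPM (280.0 to 322), and lowest in cluster 9, at 29.0 CPM (21.3 to 38.6). PSMD11 ran from 52.4 CPM in cluster 12 to 4.00 CPM in cluster 13. The base chaperone PSMD5 was at 27.6 CPM in cluster 12 and 3.71 CPM in cluster 9. PSME3IP1, named for binding PSME3, was highest in cluster 9, at 136 CPM (119 to 155) against 18.3 CPM (15.4 to 21.6) in deep somatic cells, as was PSME3 itself.

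Of the activators, PSME4 (PA200), the cap of the spermatoproteasome, was at 56.0 CPM (45.9 to 67.6) in cluster 10, 52.4 CPM (37.1 to 72.0) in cluster 12, 125 CPM (107 to 144) in cluster 4, 139.8 CPM (126 to 155) in cluster 8 and 91.5 CPM (77.3 to 107) in cluster 9. Deep somatic cells held 23.1 CPM (19.8 to 26.8), a log2 ratio of 2.09 for the germ cells together. PSME3, the nuclear activator PA28 gamma, was at 160.1 CPM (141 to 181) in cluster 9 and at 8.40 to 40.0 CPM in the other 7 clusters. PSMF1, the inhibitor PI31, was also highest in cluster 9, and ranged from 2.62 CPM in cluster 7 to 41.4 CPM in cluster 9. The chaperone PSMG2 was at 37.7 CPM (29.3 to 47.8) in typed germ cells and 13.0 CPM (11.8 to 14.4) in somatic classes. PSMD10, another chaperone, was at 17.3 CPM in cluster 7 and 0.369 CPM in cluster 8. Assembly chaperone 4 (ENSBGRG00000008779) was at 862 CPM in cluster 10 and 34.7 CPM in cluster 8, and at 518 CPM in T/NK-like cells. PSMC3IP (HOP2), a meiotic recombination factor, was at 33.6 CPM (19.2 to 54.6) in late-SPC and 50.9 CPM (39.9 to 64.0) in cluster 4, against 9 UMIs in all named somatic cells.

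The immunoproteasome genes were highest in somatic classes. PSMB8, which replaces PSMB5, was at 246 CPM (236 to 258) in T/NK-like, 201 CPM (171 to 235) in macrophage-like, 182 CPM (172 to 193) in EC-like and 132 CPM (121 to 144) in pericyte-like cells. Stromal-like, lymphatic EC-like and MC-like cells were lower, at 91.3 CPM (81.9 to 101), 59.1 CPM (51.3 to 67.8) and 33.5 CPM (28.0 to 39.9). In the 8 deep germ clusters it ranged from 1.11 CPM (0.228 to 3.23) to 10.4 CPM (6.33 to 16.0), a log2 ratio of -5.06 for all of them against deep somatic cells. Typed germ cells held more, at 78.4 CPM (40.5 to 137) in SSC, 50.1 CPM (34.0 to 71.1) in SPG, 7.02 CPM (0.851 to 25.4) in early-SPC, 23.1 CPM (11.5 to 41.3) in late-SPC and 51.5 CPM (28.2 to 86.5) in SPT. Summed over 8 lymphocyte markers, the types ranged from 84.3 CPM in early-SPC to 228 CPM in SPT, with 157 CPM in SPG, the deep germ cells 78.4 CPM and T/NK-like cells 1878 CPM. Against somatic classes, 6 of the 8 were 2-fold lower in typed germ cells (18.7% of all genes) and CD247 was higher (28.8%). In deep germ-like cells CD3D and CD247 were 2-fold higher, of 3 tested (47.2% of all genes). The sum was 131 CPM in cluster 8, with 3 PSMB8 UMIs, and 33.7 CPM in cluster 10, with 20, so it did not follow PSMB8 there. The part of RNA from other cells in the germ values was not tested.

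Beta type-9 (ENSBGRG00000021991), which replaces beta type-6, was at 585 CPM (533 to 641) in macrophage-like, 411 CPM (397 to 425) in T/NK-like and 393 CPM (378 to 409) in EC-like cells, and at 51.0 CPM (44.0 to 58.7) in MC-like cells. Deep germ cells held 15.7 CPM (13.6 to 18.0) and deep somatic cells 391 CPM (377 to 405). Among the typed cells it was highest in SSC, at 255 CPM (181 to 348), the type with the endothelial markers given above. PSMB10, which replaces PSMB7, differed from both. It was at 158 CPM (146 to 171) in stromal-like, 63.0 CPM (57.7 to 68.8) in T/NK-like and 26.7 CPM (21.7 to 32.4) in MC-like cells. Deep clusters 10, 7, 12 and 4 held 7.77, 14.7, 9.66 and 24.4 CPM, but cluster 8 held 108 CPM (96.4 to 122), cluster 0 104 CPM (89.6 to 119), cluster 13 74.0 CPM (58.1 to 92.9) and cluster 9 64.9 CPM (53.1 to 78.6). Clusters 8, 0, 13 and 9 thus lay in the somatic range for PSMB10 and below it for PSMB8.

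The same split was seen in the share of each inducible subunit within its pair. PSMB8 made up 96.9% (96.1 to 97.6) of PSMB8 and PSMB5 UMIs in yak T/NK-like cells, 62.9% (55.8 to 69.5) in MC-like cells, 62.0% (47.2 to 75.3) in SPG, 22.0% (11.5 to 36.0) in late-SPC, 60.9% (38.5 to 80.3) in SPT and 92.3% (64.0 to 99.8) in SSC. In the deep clusters it made up 29.9% (19.3 to 42.3) in cluster 10 and 0.750% (0.155 to 2.18) in cluster 8, the highest and lowest of the 8. Clusters 13 and 9, led by spermatid markers like SPT, held 7.59% (2.84 to 15.8) and 8.33% (1.75 to 22.5), far below SPT. The beta type-9 share was 82.1% (80.8 to 83.2) in T/NK-like, 27.5% (24.2 to 31.0) in MC-like and 7.37% (6.43 to 8.40) in deep germ-like cells. It was 64.5% (51.3 to 76.3) in SPT, against 18.5% (10.8 to 28.7) in cluster 13 and 23.9% (15.4 to 34.1) in cluster 9. The PSMB10 share was 43.6% (40.7 to 46.5) in T/NK-like cells, 2.78% (1.57 to 4.55) in cluster 10 and 63.3% (55.4 to 70.6) in cluster 9. Over the 3 pairs, inducible subunits were 80.1% (79.1 to 81.0) in T/NK-like cells and 65.0% (64.2 to 65.7) in the other somatic classes, among which MC-like cells held 31.4% (28.9 to 33.9). The germ types were split: the share was 60.3% (50.8 to 69.3) in SSC and 61.2% (52.3 to 69.7) in SPT, against 29.2% (24.6 to 34.1) in SPG, 16.4% (8.49 to 27.5) in early-SPC and 20.8% (16.6 to 25.6) in late-SPC. Deep germ-like cells together held 14.4% (13.6 to 15.3), but their clusters differed. The share was 7.17% (5.71 to 8.87) in cluster 10, 6.43% (5.11 to 7.97) in cluster 7 and 4.85% (2.94 to 7.47) in cluster 12. It was 6.89% (5.43 to 8.60) in cluster 4, 17.5% (15.7 to 19.3) in cluster 8 and 24.3% (21.7 to 27.1) in cluster 0. Clusters 13 and 9 held 31.7% (26.4 to 37.3) and 44.5% (38.7 to 50.4). In cluster 9, 105 of the 129 inducible UMIs were PSMB10. Cattle-yak cells gave 78.1% (76.6 to 79.5) in T/NK-like, 63.8% (62.8 to 64.7) in other somatic, 11.3% (7.74 to 15.7) in germ-like and 5.71% (4.66 to 6.91) in deep germ-like cells.

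**Figure D4:**
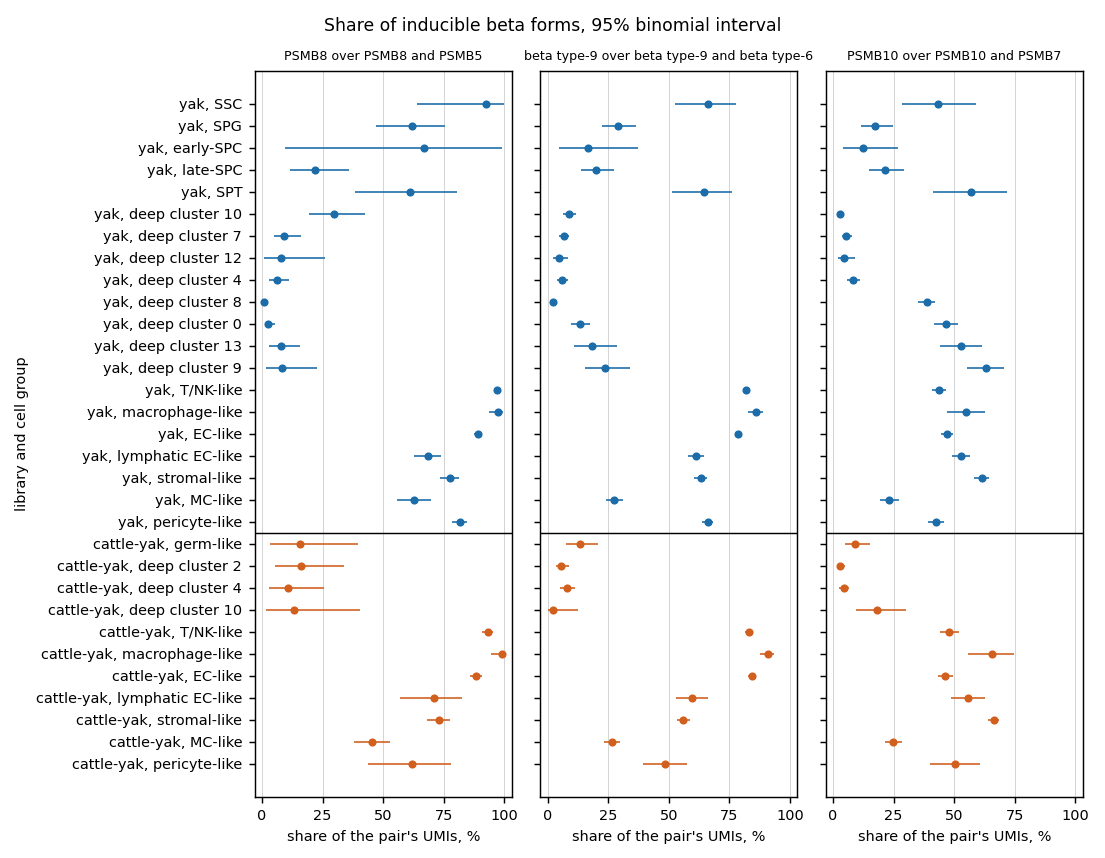
Share of UMIs of the inducible beta subunit within its pair (x axis, percent, exact 95% binomial intervals) for yak (blue) and cattle-yak (orange) cell groups; beta type-9 and beta type-6 are features described so in the study's tables. In the yak, T/NK-like and macrophage-like cells lie highest in the first and second panels, MC-like cells are the lowest somatic class in all 3, and for PSMB10 clusters 8, 0, 13 and 9 lie apart from the other 4 deep germ clusters.

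PSME1 and PSME2, the interferon-induced activator PA28 alpha and beta, were also lower in germ cells. PSME1 was at 53.2 CPM (43.1 to 65.0) in typed germ cells and 147 CPM (143 to 151) in somatic classes. PSME2 was at 40.5 CPM (31.7 to 50.9) and 112 CPM (108 to 116). Both were lowest in cluster 9 among the deep clusters, 11.1 CPM and 5.56 CPM, and PSME1 was highest in cluster 12, at 112 CPM. Early-SPC held 1 UMI of each. In RefSeq they flank the gene EMC9, while PSMB8 lies between TAP2 and TAP1, the peptide transporter genes, and PSMB9 beside TAP1. In a list of 15 class I presentation genes and their regulators, 12 were annotated and tested, of which 10 were 2-fold lower in typed germ cells than in somatic classes and 1, CALR, an endoplasmic reticulum chaperone, was higher, beside 18.7% and 28.8% of all genes. PSMB11, the thymus form, had 16 UMIs in the deep germ-like cells, 1.21 CPM (0.693 to 1.97), and 0 in the kept named somatic classes of the yak, where 3 UMIs would be 0.0994 CPM, and 0 in the kept germ-like cells, where 3 UMIs would be 0.911 CPM. The highest value was 4.18 CPM (1.53 to 9.10) in cluster 4. PSMB11 and PSMB5 are neighbours in RefSeq, and whether reads of one were counted for the other was not tested.

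T/NK-like cells of the yak had low core proteasome levels beside their high PSMB8. In the yak, 1 of 37 members was 2-fold higher than in the other somatic classes (9.41% of all genes), PSMB8, at 246 CPM (236 to 258) against 114 CPM (109 to 118). A further 2 were lower (26.9%), PSMB5 at 7.77 CPM against 24.0 CPM and PSMC3 at 66.0 CPM against 142 CPM. Cattle-yak T/NK-like cells also had 1 higher of 36 (7.55%), again PSMB8, at 155 CPM (142 to 169) against 67.5 CPM (63.5 to 71.7), and 0 lower (24.7%). The log2 ratios of PSMB8 were 1.11 and 1.19, and they were 0.89 and 0.81 when cells above the upper limits also entered the classes. At a mitochondrial limit of 20% the cattle-yak ratio was 0.98, also under 2-fold. The members' medians, -0.45 and -0.32, stood beside -0.25 and -0.32 for all genes. The core medians were -0.46 in the yak, with 7 of 27 core genes above the median of all genes, and -0.33 in the cattle-yak, with 12 of 26. Core genes of cattle-yak T/NK-like cells thus lay near genes in general. In that library macrophage-like cells held more PSMB8 than T/NK-like cells, as given below. EC-like cells held nearly as much, with 557 UMIs of 3783097 beside 551 of 3554737.

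The cattle-yak library held 112 kept germ-like cells and 131 deep ones. A further deep cluster of 89 cells had 9 germ cell markers enriched but, among its 10 leading genes, none of these and a marker of another class, so it stayed unnamed and is left out of these values; its PSMA8 level was 42.6 CPM (34.7 to 51.8). PSMA8 was at 80.6 CPM (59.5 to 107) in the kept cells. In the deep clusters it was at 45.5 CPM (35.8 to 57.0) in cluster 2, 45.3 CPM (35.4 to 57.1) in cluster 4 and 369 CPM (298 to 452) in cluster 10, which had only 10 cells. These clusters are numbered apart from those of the yak. Clusters 2 and 4 were led by spermatogonial markers and cluster 10 by spermatocyte markers, at 5313 CPM. The PSMA8 share of PSMA8 and alpha type-7 UMIs was 22.6% (18.2 to 27.5), 19.3% (15.4 to 23.8) and 91.2% (83.9 to 95.9) in the 3 clusters. Named somatic cells of this library held 6 PSMA8 UMIs, 0.311 CPM (0.114 to 0.676). PSMD2 in cluster 10 was at 604 CPM (511 to 708) and PSME4 at 147 CPM (103 to 203).

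Between the libraries, germ-like cells differed in 1 higher member of 34 (4.68% of all genes) and 3 lower ones (25.3%). PSMD1 was higher in the cattle-yak, at 885 CPM (811 to 964) against 369 CPM (348 to 390.0), while PSMA6 was lower, at 186 CPM (153 to 225) against 405 CPM (383 to 427). PSME3, at 11.8 CPM (4.73 to 24.2) against 36.4 CPM (30.2 to 43.6), and PSMB10, at 20.2 CPM (10.4 to 35.2) against 49.8 CPM (42.5 to 58.0), were also lower. Without mitochondrial and ribosomal RNA features the split was 2 higher and 2 lower, and with deep cells added the PSMD1 log2 ratio was 0.89 in place of 1.26. With every cell weighted equally the ratio of PSME3 was -0.23 and that of PSMA6 -0.95, both under 2-fold. The germ-like cells also differed in their markers: spermatid markers summed to 40.3 CPM in the cattle-yak and 3361 CPM in the yak, and spermatogonial markers to 1803 and 1083 CPM. The part of this stage mix in the 4 genes was not tested. Among yak types PSMD1 was highest in early-SPC and PSMA6 in SPT, as given above.

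**Figure D5:**
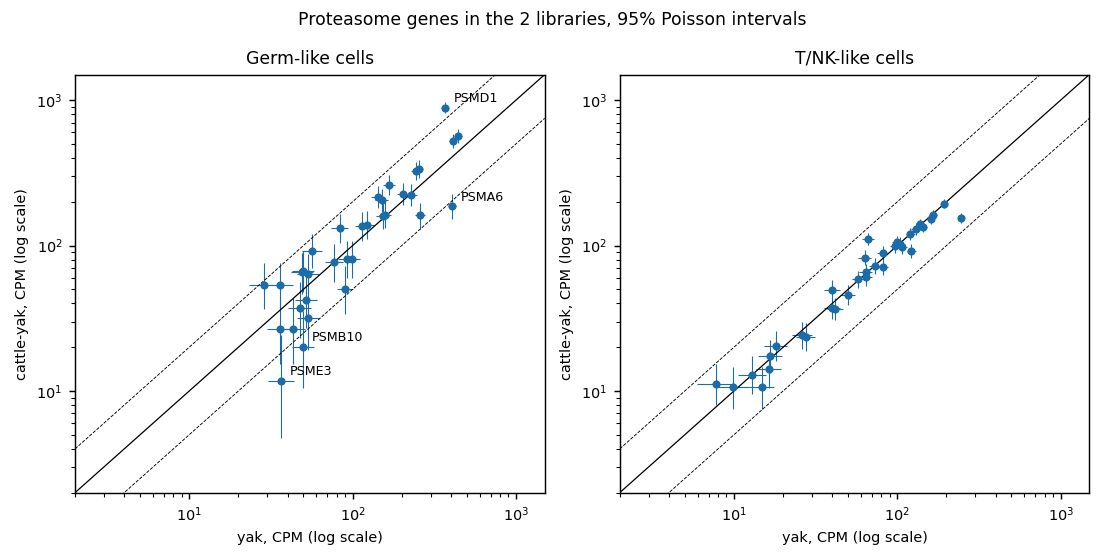
Level of each tested proteasome gene in the yak (x axis) and cattle-yak (y axis), CPM on log scales with exact 95% Poisson intervals, in germ-like and T/NK-like cells; the solid line marks equal levels and dashed lines 2-fold. In germ-like cells PSMD1 lies above and PSMA6, PSME3 and PSMB10 below the 2-fold lines, and in T/NK-like cells no gene does.

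Somatic classes differed little between the libraries. In T/NK-like cells 0 of 34 members was 2-fold higher (5.98% of all genes) and 0 lower (4.98%). No member passed 2-fold in macrophage-like (18 tested; 1.76% and 3.66% of all genes), EC-like (33; 1.57% and 3.61%) or lymphatic EC-like cells (29; 1.15% and 7.27%). The same held for stromal-like (33; 1.31% and 6.44%) and MC-like cells (32; 1.73% and 1.95%). In pericyte-like cells 1 of 29 was lower (14.8%) and 0 higher (2%). This was PSMB8, at 41.5 CPM (25.7 to 63.4) against 132 CPM (121 to 144), a log2 ratio of -1.65 that was -0.12 with cells above the upper limits added. Pan-endothelial markers in these cells were at 223 CPM in the cattle-yak and 2164 CPM in the yak, and their part was not tested. PSMB8 was also below the yak in T/NK-like cells, 155 CPM against 246 CPM, in lymphatic EC-like cells, 32.3 CPM against 59.1 CPM, in stromal-like cells, 50.1 CPM against 91.3 CPM, and in MC-like cells, 19.2 CPM against 33.5 CPM, by less than 2-fold in each, and above it in macrophage-like cells, 217 CPM against 201 CPM. EC-like cells were lower in the cattle-yak too, by less than 2-fold, with 557 PSMB8 UMIs of 3783097 against 1173 of 6440142 in the yak. Mitochondrial and ribosomal RNA took a larger part of the cattle-yak UMIs (22.2% and 12.7%, against 13.1% and 7.1% in the yak). Leaving them out moved the median log2 ratio of all genes from -0.21 to 0.01 in T/NK-like and from -0.25 to 0.08 in stromal-like cells, with the members' median at -0.00 and 0.22 in T/NK-like and -0.26 and 0.09 in stromal-like cells.

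The genes whose level was most like that of PSMA8 were CCDC18, CCT2 and BRWD1, with Pearson correlations of 0.976, 0.965 and 0.955 of log2(CPM + 1) over 22 yak groups, among 12953 genes. For PSMB8 the closest gene was beta type-9, at 0.981, and for PSMB10 the best match among genes with a symbol, CALML4, reached 0.806. These groups share a library and differ in depth, so the values only describe. Of 22 partners of the proteasome outside the symbol pattern, 19 were tested in typed germ cells against somatic classes. POMP, a 20S maturation factor, ADRM1, a ubiquitin receptor, TXNL1 and NGLY1 were 2-fold higher, and UBQLN4 was 2-fold lower, beside 28.8% and 18.7% of all genes.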

How the data were processed

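The authors deposited 1 matrix of UMI counts per library, with features and barcodes, made from droplet reads of polyA RNA. The labels name Cell Ranger 2.1.1 and the matrix header 5.0.0; which version made these counts was not settled. The counts were used as deposited. Cells were kept up to 2 SD above the mean of genes and UMIs and below 30% mitochondrial UMIs, with no lower limit added; kept and deep cells were clustered separately (2000 variable genes, 30 components, 15 neighbours, Leiden resolution 1, seed 0), without proteasome genes, and named by markers. Germ types came from the authors' cell table. Scrublet called 0 yak and 251 cattle-yak cells (2.81%) as doublets; the yak call did not work, and no cell was removed. Counts were summed per library and class. With 1 library per group no test across samples was possible. All members could be named, with full values for the inducible and germ cell subunits, the activators and members past 2-fold; other genes came from the gene lists or the likeness rule (the 3 highest Pearson correlations). The members and lists were chosen with earlier results of these data known. Symbol-free partners were named from the study's gene tables, and gene neighbours from RefSeq. Ratios and intervals were tested on simulated counts with Poisson error only, which is the model the intervals assume. That check does not cover spread between cells or libraries. Alternatives changed the mitochondrial limit, the upper limits, the scaling, the added CPM, the UMI minimum, the clustering resolution, the thinning depth and the cells scored highest by Scrublet. Python 3.11.15, numpy 2.4.6, scipy 1.17.1, pandas 2.3.3, scanpy 1.11.5, scikit-learn 1.9.0, igraph 0.11.9 and matplotlib 3.10.9 were used.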

Additional observations from a re-analysis of the deposited data

Results flagged for a closer look

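PSMA8 was also counted in cells left out of every class because at least 30% of their UMIs were mitochondrial. In the yak, 877 such cells held 9 PSMA8 UMIs, 4.81 CPM (2.20 to 9.13). There 3 UMIs would be 1.60 CPM, and T/NK-like cells held 1.23 CPM. The interval includes the level given above for yak MC-like cells, the highest somatic class. In the cattle-yak, 1310 such cells held 23 PSMA8 UMIs, 3.97 CPM (2.52 to 5.96), against 0.518 CPM for 3 UMIs and 0.281 CPM in T/NK-like cells. Both values were listed because they lie above the level in a cell type that should lack the gene. Which cells these UMIs came from was not tested.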

How the results depend on the processing

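No paired analysis was possible because each group was 1 library and the labels give no replicate numbers. The 57 calls of a member past 2-fold kept their direction in all 573 alternative values, of which 542 stayed past 2-fold. Part of both totals was fixed in advance. Another UMI minimum leaves a ratio as it was, and another added CPM cannot reverse it. Without upper limits the authors' germ types hold the same cells, so their ratios to SPG stayed as they were. Other named genes were not recomputed. Counts of members past 2-fold moved as follows, where germ types are against SPG and other classes, T/NK-like aside, are between libraries. The shares of all genes past 2-fold were not given under these settings, so a moved count is not read as a result about the members. The cause was not tested. Weighting cells equally gave 1 lower in SSC (2 in the report), 1 lower in early-SPC (2), 1 higher in SPT (2), 2 lower in cattle-yak T/NK-like (0), 2 higher and 1 lower in germ-like cells between libraries (1 and 3) and 1 lower in lymphatic EC-like (0). An added 10 CPM gave 1 lower in SSC and 0 lower in yak T/NK-like (2), and 0.1 CPM gave 1 lower in lymphatic EC-like. A minimum of 20 UMIs tests more members. Of 33 in SSC, 9 were lower and 1 higher. Of 35 in each type, 10 were lower in early-SPC, 1 in late-SPC and 6 in SPT. Between libraries, 6 of 40 were lower in germ-like and 1 of 30 in macrophage-like cells. In pericyte-like cells 2 of 37 were lower and 2 higher. The main setting tested 12 in SSC, 17 in early-SPC, 20 in late-SPC and 13 in SPT. A minimum of 500 tests fewer. It gave 0 higher of 1 tested in late-SPC (4) and 1 lower of 14 in germ-like cells, and left no member to count in SSC, early-SPC and SPT. Without the cells Scrublet scored highest, 1 was lower in SSC, 5 in SPT and 1 in lymphatic EC-like. Without mitochondrial and ribosomal RNA, 6 were lower in SPT and 2 higher in germ-like cells. Without upper limits, 0 were higher in T/NK-like of both libraries (1 each), 7 lower in germ-like and 0 lower in pericyte-like (1). A mitochondrial limit of 20% gave 1 lower in cattle-yak T/NK-like, 2 higher in germ-like and 1 lower in MC-like (0). Resolution 2 gave 2 lower in cattle-yak T/NK-like, 1 in macrophage-like and 0 in pericyte-like, and 0.5 gave 1 lower in stromal-like (0). The inducible share was 80.8% in cattle-yak T/NK-like at resolution 2 (78.1%) and 6.45% in cattle-yak germ-like cells without upper limits (11.3%). The PSMA8 share of deep germ-like cells was 59.4% at the 20% limit and 58.9% without the Scrublet cells (56.8%). Late-SPC cells with a PSMA8 UMI were 9.58% thinned to 500 UMIs (17.7%). Few UMIs limit the precision of SSC, early-SPC and SPT.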
